A study of Mus musculus with 5 samples.

Results

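The antiviral interferon-stimulated genes (ISGs) described here are 44 genes chosen by name, and all 44 had a row among the 24419 gene rows of the table. Of these, 43 reached a mean of 1 CPM (UMI counts scaled to a common library total) over the 5 libraries and were tested together with all 10088 genes above that level. Slfn4, a Schlafen family gene, lay below it with 2 and 0 molecules counted after PBS and 3, 2 and 1 after Sema3G. The RNA-seq used bone marrow-derived macrophages (BMMs) of C57BL/6 mice, which were grown for 5 days with 50 ng/ml M-CSF and activated with 100 ng/ml LPS. The activated BMMs were then given PBS (2 libraries, titled as untreated) or 100 ng/ml semaphorin 3G (Sema3G, 3 libraries) for 18 h, so LPS was present in the controls too. The labels give neither the age or sex of the mice nor whether the libraries of a group came from separate mice or cultures, so the p values measure the spread between these libraries, which may be technical. The comparison asked how Sema3G changes the RNA of activated macrophages.

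ISGs are the genes that a cell switches on when interferon binds its receptor. The receptor kinases JAK1 and TYK2 activate STAT2, which joins IRF9, and the complex binds the interferon-stimulated response element (ISRE) of target promoters, and the resulting proteins detect, trap or degrade viral RNA and protein. In macrophages LPS starts the same programme through TLR4, TRIF and IRF3, which turn on the interferon-beta gene, and the secreted interferon then acts back on the culture.

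The CPM values step in units of a single count, so the numbers of unique molecular identifiers (UMIs) could be recovered, with library totals from 1798469 to 2215855. A count of 3 UMIs corresponded to 1.35 to 1.67 CPM. The ribosomal RNA precursor Rn45s took 1.01% and 3.19% of the UMIs with PBS and 6.31% to 7.88% with Sema3G, and it is inside the CPM total. The median log2 fold change of all genes tested was -0.22. Scaling by edgeR's TMM factors moved that median to -0.04. All 8 macrophage markers looked up had UMIs, with a summed level of 8860 to 12570 CPM. The lymphoid markers Cd3e, Cd3g, Cd79a and Ncr1 were at 0 in all 5 libraries. In bulk RNA, fewer cells of a type and less RNA per cell cannot be told apart.

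No antiviral ISG was called higher or lower with Sema3G by limma on the CPM of all 5 libraries, while some other scalings and tests called Ifih1 and up to 3 further members higher. With limma fitted to log2(CPM + 1) and a threshold of 0.05 on the adjusted p, 0 of the 43 members were called higher, against 1.59% of all genes tested, and 0 were called lower, against 0.218%. At an unadjusted p under 0.05, limma had Ifih1, Parp14 and Xaf1 higher, against 6.83% of all genes, and Adar lower, against 14.2%. The lowest adjusted p of a member was 0.122 from limma, for Ifih1. Whatever their p, 19 members had a log2 fold change above 0 and 24 below, with a median of -0.15 and a range from -0.77 for Ifit1 to 1.22 for Xaf1.

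What varied was the level of the whole group between libraries that had received the same treatment. The summed level of the 44 genes was 6214 CPM in PBS replicate 1 and 3768 CPM in PBS replicate 2. It was 5402 CPM in Sema3G replicate 1, 3952 CPM in replicate 2 and 3615 CPM in replicate 3. PBS replicate 1 and Sema3G replicate 1 were therefore the high libraries, 1 in each group. They were also the 2 highest libraries for 32 of the 44 members one by one, while this held for 20.1% of all genes tested. Ifitm3 makes up much of these sums, and without it they were 3379 and 2057 CPM with PBS and 3262, 2057 and 1876 CPM with Sema3G.

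**Figure D1:**
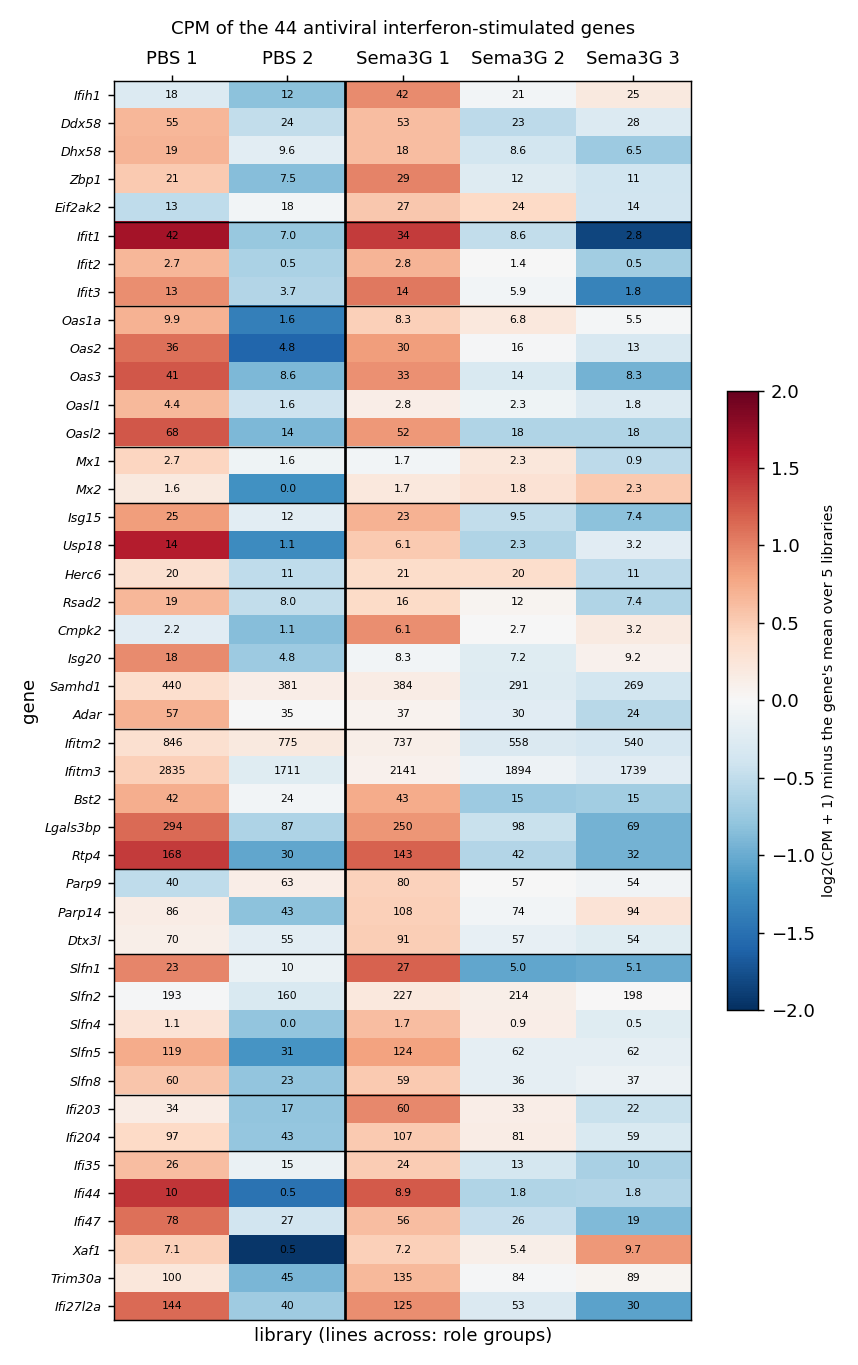
CPM of the 44 antiviral ISGs (rows, separated by lines into 11 role groups) in the 2 PBS and 3 Sema3G libraries (columns). The printed number is the CPM and the colour is log2(CPM + 1) minus the mean of that gene over the 5 libraries, from -2 (blue) to 2 (red). Most rows are red in PBS replicate 1 and Sema3G replicate 1, and mostly blue or pale in PBS 2, Sema3G 2 and Sema3G 3.

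The promoters of several members hold letters that match the core of the ISRE. It was searched as GAAANNGAAA, where N is any base, and on the other strand as TTTCNNTTTC, in the 250 bases before the RefSeq start of each gene (build GRCm38.p6). Overlapping matches were counted as separate matches. A window was given for 33 of the 44 members, and 12 of these held the core, which is 36.4%. Over all 27025 genes with a window the share was 3.46%. The members were chosen by name as ISGs, so the difference between these shares is not a result of these data. The 12 genes were Bst2, Ifi203, Ifit1, Ifit3, Ifitm2, Isg15, Oas1a, Oas3, Rsad2, Slfn5, Slfn8 and Trim30a. The windows printed here are the 160 bases before the start, read in the direction of the gene, with the core in capitals. They lie at chr4:156200819-156200978 on the minus strand for Isg15, chr19:34640729-34640888 on the plus strand for Ifit1, chr19:34583369-34583528 on the plus strand for Ifit3, chr12:26456453-26456612 on the minus strand for Rsad2, chr5:120777660-120777819 on the minus strand for Oas3 and chr2:62646256-62646415 on the minus strand for Ifih1.
Isg15: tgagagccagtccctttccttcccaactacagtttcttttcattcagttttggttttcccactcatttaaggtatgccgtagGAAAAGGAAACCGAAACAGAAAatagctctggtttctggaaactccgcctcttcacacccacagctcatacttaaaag
Ifit1: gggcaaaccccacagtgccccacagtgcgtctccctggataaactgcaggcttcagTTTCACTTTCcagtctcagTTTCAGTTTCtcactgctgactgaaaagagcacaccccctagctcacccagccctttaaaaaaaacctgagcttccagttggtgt
Ifit3: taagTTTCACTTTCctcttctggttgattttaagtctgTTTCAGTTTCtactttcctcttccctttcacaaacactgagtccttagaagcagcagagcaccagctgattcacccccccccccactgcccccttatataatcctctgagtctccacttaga
Rsad2: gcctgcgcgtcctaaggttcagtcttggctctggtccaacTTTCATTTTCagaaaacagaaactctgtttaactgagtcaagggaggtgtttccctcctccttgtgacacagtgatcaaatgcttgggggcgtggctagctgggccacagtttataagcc
Oas3: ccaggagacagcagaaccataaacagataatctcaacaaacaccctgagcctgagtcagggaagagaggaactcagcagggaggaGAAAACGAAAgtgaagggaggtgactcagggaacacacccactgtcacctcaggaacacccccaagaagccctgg
Ifih1: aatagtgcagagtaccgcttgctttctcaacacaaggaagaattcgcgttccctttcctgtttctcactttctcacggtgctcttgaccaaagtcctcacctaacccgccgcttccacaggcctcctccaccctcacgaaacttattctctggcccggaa

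Isg15 holds 3 overlapping matches, the first 78 bases before its start, and Ifit1 and Ifit3 hold 2 each. Ifih1 has none in this window, and neither do 20 other members whose window was searched. Members with and without the core were both higher in PBS replicate 1. On log2(CPM + 1), PBS replicate 1 exceeded PBS replicate 2 by a median of 1.25 over the 12 members with the core and by 0.94 over the 20 tested members without it. Over the 252 other tested genes that hold the core the median was 0.15, close to the 0.12 of all genes tested. The part of the core in the differences between libraries was not tested.

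The cytosolic sensors of viral nucleic acid hold the gene nearest to a call. Ifih1, which encodes the long double-stranded RNA sensor MDA5, is at chr2:62595798-62646255 on the minus strand (GRCm38). It had 17.6 and 11.8 CPM with PBS and 42.3, 20.8 and 24.9 CPM with Sema3G. Its groups did not overlap, and Sema3G replicate 1 stood above the other 4 libraries. From 14.7 ± 4.10 CPM (SD, n = 2) to 29.3 ± 11.4 CPM (SD, n = 3), the log2 fold change was 0.91 (standard error, SE, of 0.31, limma adjusted p = 0.122). After TMM scaling it was 1.11 with an adjusted p of 0.0449 from limma, and there 1 of 43 members was called against 3.19% of all genes higher. By the quasi-likelihood test of edgeR on recovered UMI counts it was 1.18 with an adjusted p of 0.0442, and there 1 of 38 members was called against 4.05% of all genes higher. DESeq2 on the same counts called no member, against 1.81% of all genes called in either direction.

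Eif2ak2 encodes PKR, the kinase that stops translation on sensing double-stranded RNA. It had 12.6 and 17.7 CPM with PBS and 27.2, 24.4 and 13.8 CPM with Sema3G (log2 fold change 0.46 ± 0.31 SE, limma adjusted p = 0.396). Here PBS replicate 1 was the lowest of the 5 libraries, against the run of the other members. Ddx58, which encodes the RNA sensor RIG-I, had 54.9 and 24.1 CPM with PBS and 52.8, 23.5 and 28.1 CPM with Sema3G. Both groups thus span nearly the same range, with the first library of each high and the others low. Dhx58, the gene of the RIG-I relative LGP2, and Zbp1, a sensor of Z-form nucleic acid, had the same shape, with log2 fold changes of -0.39 and 0.28 and with PBS replicate 1 and Sema3G replicate 1 highest.

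The IFIT genes, whose proteins hold back viral RNA that lacks the host cap methylation, showed a steep contrast between libraries of one group. Ifit1 (chr19:34640871-34650009, plus strand) had 41.8 and 6.96 CPM with PBS and 34.5, 8.57 and 2.77 CPM with Sema3G. The first library of each group was high and the other libraries were low, whichever the treatment. The ratio of PBS replicate 1 to PBS replicate 2 was 6.00, with an exact 95% interval of 3.31 to 11.8. Such intervals cover counting error only. The ratio of Sema3G replicate 1 to the pooled replicates 2 and 3 was 6.05 (3.74 to 10.04). The group difference of Ifit1 was -0.77 on the log2 scale with a standard error of 0.68 (limma adjusted p = 0.523). Ifit3 had the same order within each group at 12.6 and 3.75 CPM with PBS and 13.9, 5.87 and 1.84 CPM with Sema3G (log2 fold change -0.28, limma adjusted p = 0.8002). Ifit2 was near the floor with 5 and 1 UMIs after PBS and 5, 3 and 1 after Sema3G.

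The OAS genes encode enzymes that make the messenger activating RNase L, and their catalytically inactive relatives. Oas2 had 36.3 and 4.82 CPM with PBS and 30.0, 16.2 and 12.9 CPM with Sema3G. Its ratio between the PBS libraries was 7.53 (interval 3.73 to 17.2), and the Sema3G libraries all lay between them. Oas3 had 41.2 and 8.57 CPM with PBS and 32.8, 13.5 and 8.30 CPM with Sema3G, and Oasl2 had a PBS ratio of 4.68 (interval 3.06 to 7.38). Oas1a had 18 and 3 UMIs after PBS and 15, 15 and 12 after Sema3G, and Oasl1 had 8 and 3 against 5, 5 and 4. The log2 fold changes of the 5 OAS genes ran from -0.29 to 0.55, with a lowest adjusted p of 0.532 from limma. The MX genes belong to a family of GTPases that can block the replication of viruses, and they gave few counts. Whether they make working proteins in these mice was not examined. Mx1 had 5 and 3 UMIs after PBS and 3, 5 and 2 after Sema3G. Mx2, annotated as a polymorphic pseudogene in GENCODE M21, had 3 and 0 against 3, 4 and 5, so no value was above 5 UMIs. Its groups did not overlap in CPM, but PBS replicate 1 and Sema3G replicate 1 tied at 3 UMIs, and their 1.65 and 1.67 CPM differed only through the library totals. Limma called neither MX gene on these few counts. The log2 fold change was -0.29 for Mx1 (limma adjusted p = 0.772) and 0.84 for Mx2 (limma adjusted p = 0.401).

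ISG15 is a small modifier that is attached to other proteins, and Isg15 is at chr4:156199424-156200818 on the minus strand. It had 25.3 and 11.8 CPM with PBS and 22.8, 9.48 and 7.38 CPM with Sema3G. The 2 high libraries are again the first of each group, and the other Sema3G libraries lay below both PBS libraries (log2 fold change -0.52 ± 0.41 SE, limma adjusted p = 0.464). Usp18, the gene of the protease that removes ISG15 and dampens receptor signalling, had 25 UMIs in PBS replicate 1 and 2 in PBS replicate 2. With Sema3G it had 11, 5 and 7 UMIs, all between the PBS values. Its PBS ratio of 12.8 had a wide interval of 3.20 to 112 because of the 2 UMIs. Herc6, the gene of the mouse ISG15 ligase, had 19.8 and 10.7 CPM with PBS and 20.6, 20.3 and 10.6 CPM with Sema3G, and its exons are shared with the gene model Gm45193.

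Among the enzymes that act on nucleotides and RNA, Rsad2 encodes viperin, which makes a chain-terminating nucleotide. It had 19.2 and 8.03 CPM with PBS and 15.6, 12.2 and 7.38 CPM with Sema3G (log2 fold change -0.14 ± 0.38 SE, limma adjusted p = 0.854). Adar, the gene of the enzyme that edits adenosine in double-stranded RNA, had 57.1 and 34.8 CPM with PBS and 36.7, 29.8 and 23.5 CPM with Sema3G. The group means were 46.0 ± 15.8 CPM (SD, n = 2) and 30.0 ± 6.597 CPM (SD, n = 3), a log2 fold change of -0.58 (SE 0.26, limma adjusted p = 0.215), with 1 library of overlap. Samhd1, a dNTP hydrolase gene, had 440 and 381 CPM with PBS and 384, 291 and 269 CPM with Sema3G. It and Adar stayed below 0 whichever library was left out, with ranges of -0.55 to -0.29 and -0.93 to -0.23, and relative to the median of all genes their log2 fold changes were -0.17 and -0.35. Cmpk2, the gene next to Rsad2, had 4 and 2 UMIs after PBS and 11, 6 and 7 after Sema3G (log2 fold change 0.90, limma adjusted p = 0.298). Isg20, an exonuclease gene, had 17.6 and 4.82 CPM against 8.34, 7.22 and 9.22 CPM, so the Sema3G libraries were alike and lay between the PBS libraries.

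The membrane and secreted members included those with the most counts, and all 5 had log2 fold changes below 0 on CPM, with Ifitm3 at 0.0042 after TMM scaling. Ifitm3, whose protein blocks the entry of viruses from endosomes, had 2835 and 1711 CPM with PBS and 2141, 1894 and 1739 CPM with Sema3G. The Sema3G libraries lay inside the range of the PBS libraries (log2 fold change -0.20 ± 0.26 SE, limma adjusted p = 0.676). Its neighbour Ifitm2 had 846 and 775 CPM with PBS and 737, 558 and 540 CPM with Sema3G. This was the member with the smallest ratio between the PBS libraries above 1, at 1.09 (interval 1.01 to 1.17). The groups did not overlap, with every Sema3G library under the PBS libraries, and the log2 fold change of -0.42 (SE 0.20, limma adjusted p = 0.249) was -0.19 relative to the median of all genes. Exons of Ifitm2 are shared with the gene model Gm45717.

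Bst2 encodes tetherin, which holds budding virus on the cell surface. It had 42.3 and 24.1 CPM with PBS and 42.8, 14.9 and 15.2 CPM with Sema3G (log2 fold change -0.56 ± 0.37 SE, limma adjusted p = 0.390). Lgals3bp, the gene of a secreted galectin-3-binding glycoprotein, had 294 and 86.7 CPM with PBS and 250, 98.4 and 69.1 CPM with Sema3G (log2 fold change -0.42 ± 0.43 SE, limma adjusted p = 0.584). Rtp4, a receptor transporter protein gene, had 168 and 30.0 CPM with PBS and 143, 41.5 and 32.3 CPM with Sema3G. In each of these the first library of both groups stood apart, and with 56 UMIs or more in every library of Lgals3bp and Rtp4 the counts were high enough for narrow intervals. The PBS ratio was 5.59 for Rtp4 (interval 4.19 to 7.57) and 3.40 for Lgals3bp (2.84 to 4.07).

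PARP14 and PARP9 belong to the ADP-ribosyltransferase family, and DTX3L is the partner ubiquitin ligase of PARP9. Parp14 had 85.7 and 43.4 CPM with PBS and 108, 74.5 and 94.0 CPM with Sema3G, a log2 fold change of 0.57 (SE 0.25, limma adjusted p = 0.208), which was 1.05 without PBS replicate 1 and 0.087 without PBS replicate 2. Of the Sema3G libraries, 2 lay above both PBS libraries and 1 between them. Parp9 was lower in PBS replicate 1 than in replicate 2, at 40.1 and 63.2 CPM, a ratio of 0.635 (interval 0.468 to 0.857), and had 79.5, 56.9 and 54.4 CPM with Sema3G. Parp9 and Eif2ak2 were the only 2 tested members that were lower in PBS replicate 1. Dtx3l had 69.8 and 55.1 CPM with PBS and 90.6, 57.3 and 54.4 CPM with Sema3G. Parp9 and Dtx3l overlap in exons on opposite strands, and whether the counting used strand was not stated for these files, so reads of the pair could be mixed.

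The Schlafen genes encode regulators of growth and viral replication in immune cells. Slfn1 had 23.1 and 10.2 CPM with PBS and 26.7, 4.96 and 5.07 CPM with Sema3G. The ratio of Sema3G replicate 1 to replicates 2 and 3 was 5.32 (interval 3.15 to 9.25), the second largest of this kind after Ifit1 among the members, and the log2 fold change of -0.71 had a standard error of 0.52 (limma adjusted p = 0.434). Slfn2 had 193 and 160 CPM with PBS and 227, 214 and 198 CPM with Sema3G, without overlap but with a log2 fold change of only 0.28 (SE 0.18, limma adjusted p = 0.388). Slfn5 and Slfn8 had PBS ratios of 3.91 and 2.60 and log2 fold changes of 0.37 and 0.20. The Schlafen genes are close paralogs in a cluster on chromosome 11, and reads that match several of them could be split between them.

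Of the IFI200 family, DNA-binding innate sensors on chromosome 1, Ifi203 had 34.1 and 17.1 CPM with PBS and 60.1, 33.4 and 22.1 CPM with Sema3G (log2 fold change 0.53 ± 0.34 SE, limma adjusted p = 0.374), and its log2 fold change was 1.01 without PBS replicate 1 and 0.057 without PBS replicate 2. Its exons are shared with the family member Mndal. Ifi204 had 97.2 and 42.8 CPM with PBS and 107, 81.2 and 59.5 CPM with Sema3G (log2 fold change 0.31). In both genes PBS replicate 2 was the lowest library.

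Trim30a, a TRIM family gene that restrains TLR signalling, had 100.0 and 45.0 CPM with PBS and 135, 83.9 and 89.0 CPM with Sema3G (log2 fold change 0.57 ± 0.28 SE, limma adjusted p = 0.244). The fit that left out PBS replicate 1 gave 1.14, and the one that left out PBS replicate 2 gave 0.0027. Ifi47, which encodes an immunity-related GTPase, had 78.0 and 27.3 CPM with PBS and 55.6, 25.7 and 18.9 CPM with Sema3G (log2 fold change -0.60 ± 0.39 SE, limma adjusted p = 0.377). Ifi35, which encodes a partner of NMI, had 25.8 and 15.0 CPM with PBS and 23.9, 12.6 and 10.1 CPM with Sema3G (log2 fold change -0.41 ± 0.35 SE, limma adjusted p = 0.499). Trim30a and Ifi47 thus had log2 fold changes of opposite sign although both were highest in the first library of each group. Xaf1, a pro-apoptotic gene with the largest log2 fold change of the members at 1.22, had 13 and 1 UMIs after PBS and 13, 12 and 21 after Sema3G, and its log2 fold change (limma adjusted p = 0.215) was 0.021 without PBS replicate 2, which had the single UMI. Ifi44 had 19 and 1 UMIs after PBS and 16, 4 and 4 after Sema3G. Ifi27l2a had 144 and 39.6 CPM with PBS and 125, 53.3 and 30.4 CPM with Sema3G (log2 fold change -0.36).

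Counted over all members tested, PBS replicate 1 was above PBS replicate 2 for 41 of 43, while this held for 60.6% of all genes. The exact 95% interval of the ratio lay above 1 for 34 of the 43, against 15.7% of all genes. Sema3G replicate 1 was above both other Sema3G libraries for 39 of 43, with Isg20, Mx1, Mx2 and Xaf1 as the exceptions, against 50.2% of all genes. Its interval against the pooled replicates 2 and 3 lay above 1 for 30 of 43, against 17.6%. The members' median ratio was 2.28 between the PBS libraries and 1.99 between Sema3G replicate 1 and the other Sema3G libraries, and over all genes these medians were 1.09 and 1.11. Sema3G replicates 2 and 3 were much closer to each other. The likeness of the first libraries also held over the whole table. PBS replicate 1 and Sema3G replicate 1 differed by a chi-square of 4.62 per degree of freedom over 7838 genes. That is less than the 8.50 between the PBS libraries and the 6.10 and 6.67 between Sema3G replicate 1 and replicates 2 and 3, while the lowest of the 10 pairs was Sema3G replicates 2 and 3 at 1.69. Between these last libraries, replicate 2 was the higher one for 30 of 43 members, against 52.6% of all genes, with a median ratio of 1.11, and the interval excluded 1 for 9 of 43, against 8.11%.

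**Figure D2:**
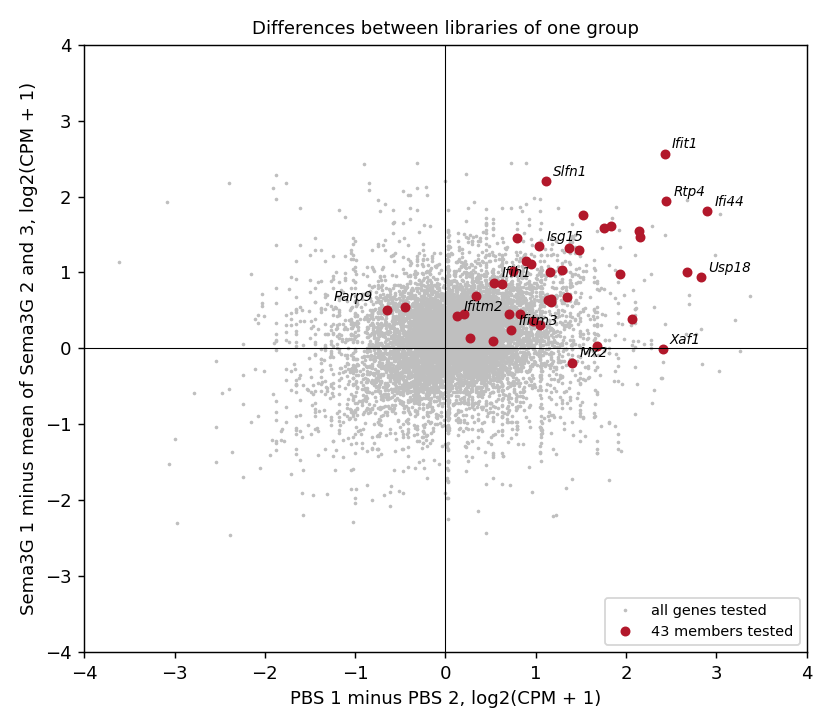
Difference between PBS replicates 1 and 2 (horizontal axis) and between Sema3G replicate 1 and the mean of Sema3G replicates 2 and 3 (vertical axis), both on log2(CPM + 1), for the 43 members tested (red) and all 10088 genes tested (grey). The members lie mainly in the upper right part, with median differences of 1.16 and 0.87, while all genes centre on 0.12 and 0.15.

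The size of these differences varied among the members. The plot of within-group differences runs from Ifit1, Rtp4 and Ifi44, which were high in both first libraries, to members with small or opposite differences. Ifitm2, Slfn2 and Samhd1 differed by 0.13, 0.27 and 0.21 on the PBS axis. On the Sema3G axis they differed by 0.42, 0.14 and 0.46. Parp9 and Eif2ak2 were below 0 on the PBS axis, at -0.64 and -0.45. Mx2 and Xaf1 were below 0 on the Sema3G axis, at -0.19 and -0.0086. The correlation of the 2 differences was 0.43 over the 43 members and 0.17 over all genes, as a description only, since the members share the same 5 libraries and their depth. For 37 of the 43 members the difference between the PBS libraries was larger than the difference between the group means, which held for 50.2% of all genes. After TMM scaling 40 members were higher in PBS replicate 1, against 49.5% of all genes, and after scaling to the listed genes other than Rn45s 41 were, against 53.0%. The Rn45s share was lower in PBS replicate 1 than in PBS replicate 2 and lower in Sema3G replicate 1 than in the other Sema3G libraries, and its part in the result was not tested.

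The direction of the group difference depended on which PBS library was in the fit. Without PBS replicate 1, 35 of the 43 members were higher with Sema3G and their median log2 fold change was 0.56 against -0.13 for all genes. In that fit limma called Oas2, Parp14, Slfn5, Trim30a and Xaf1 higher at an adjusted p below 0.05, which is 5 of 43 members against 0.825% of all genes. Without PBS replicate 2, 33 of the same 43 were lower, the median over all members tested there was -0.64 against -0.30 for all genes, and limma called none. Without Sema3G replicate 1 the median was -0.32 against -0.27 for all genes, and limma called Bst2 and Slfn1 lower, 2 of 43 against 5.49% of all genes. A lone PBS library in these fits was taken to have the spread of the Sema3G libraries.

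**Figure D3:**
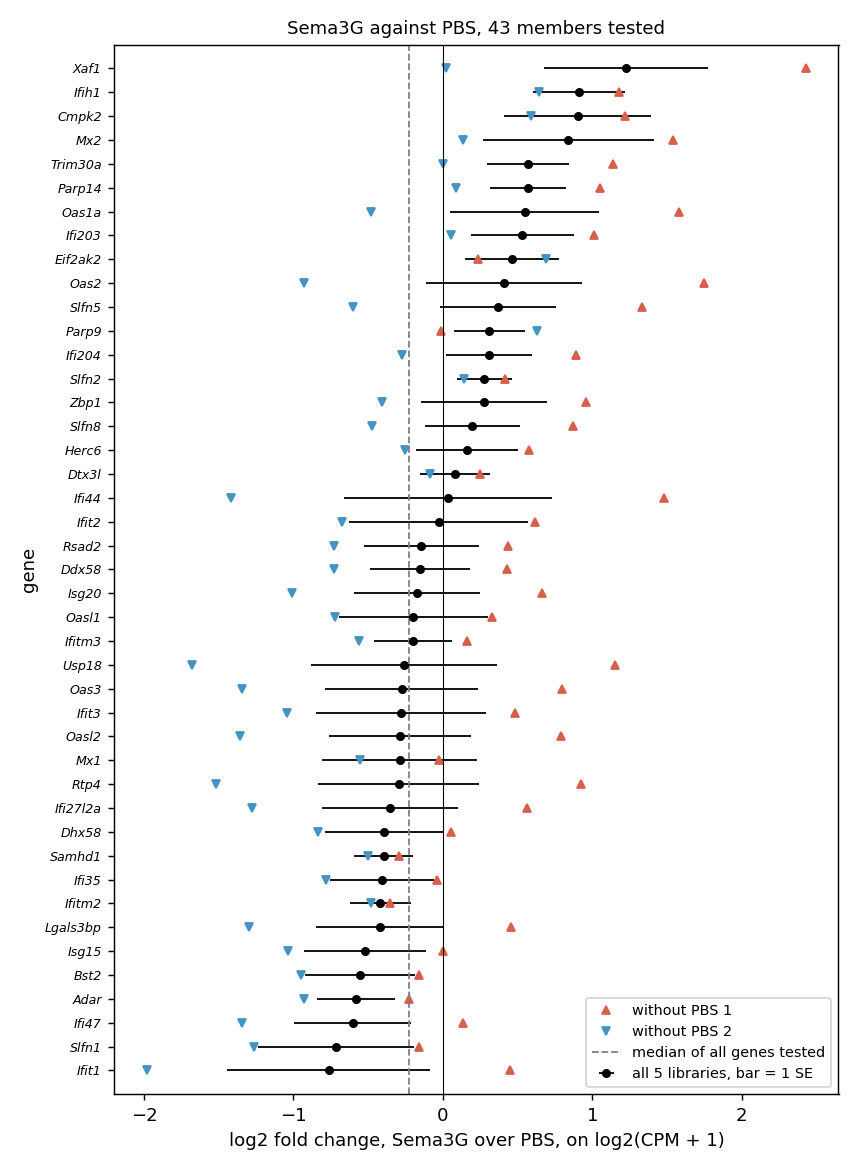
Log2 fold change of Sema3G over PBS on log2(CPM + 1) for the 43 members tested, with all 5 libraries (black, bar of 1 standard error), without PBS replicate 1 (red triangles) and without PBS replicate 2 (blue triangles), and the median of all genes tested as a dashed line at -0.22. For most members the triangles lie on opposite sides of 0, and the black points run from -0.77 for Ifit1 to 1.22 for Xaf1.

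Few members kept the treatment groups apart. All 3 Sema3G libraries lay above both PBS libraries for Cmpk2, Ifih1, Mx2 and Slfn2, which is 4 of 43 members against 11.9% of all genes. They lay below for Ifitm2, which is 1 of 43 against 26.5% of all genes. Of these 5, Cmpk2 and Mx2 rest on 11 UMIs or fewer per library, and in Mx2 the highest PBS and the lowest Sema3G library tied at 3 UMIs. The log2 fold changes of Ifih1, Slfn2, Cmpk2 and Mx2 stayed above 0 whichever library was left out, with ranges of 0.62 to 1.18, 0.14 to 0.41, 0.59 to 1.22 and 0.14 to 1.54, and that of Ifitm2 stayed below 0, from -0.56 to -0.34.

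Upstream of these genes, no interferon RNA was seen. All 20 interferon genes looked up, Ifnb1 among them, had 0 UMIs in every library, which allows up to 1.67 CPM in the shallowest one. Ifnar1 and Ifnar2 encode the chains of the receptor for interferon-alpha and interferon-beta. Ifnar1 had 106 and 111 CPM with PBS and 97.9, 99.7 and 98.6 CPM with Sema3G (log2 fold change -0.13 ± 0.18 SE, limma adjusted p = 0.693). Ifnar2 had 221 and 258 CPM with PBS and 222, 293 and 311 CPM with Sema3G (log2 fold change 0.19 ± 0.20 SE, limma adjusted p = 0.587). Neither chain was higher in PBS replicate 1 or Sema3G replicate 1 than in the other libraries of its group, unlike most members.

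Of the 16 genes listed for signalling from the receptors, 11 were higher in PBS replicate 1 than in replicate 2, against 60.6% of all genes, with a median ratio of 1.25, and 10 were higher in Sema3G replicate 1 than in both other Sema3G libraries, against 50.2%. The kinase gene Jak1 had 362 and 380 CPM with PBS and 339, 269 and 257 CPM with Sema3G. Irf7, Stat2 and Irf9, which are ISGs themselves, were each highest in the first library of their group. Irf7, the factor that amplifies interferon production, had 241 and 62.6 CPM with PBS and 256, 117 and 63.2 CPM with Sema3G. Its ratio between the PBS libraries was 3.84 (interval 3.13 to 4.75) and that of Sema3G replicate 1 to the others was 2.83 (2.47 to 3.25), with a group log2 fold change of 0.01 (SE 0.46, limma adjusted p = 0.994). The first library of each group was the highest of its group. Stat2 had 29.1 and 15.5 CPM with PBS and 42.8, 19.9 and 17.5 CPM with Sema3G (log2 fold change 0.20, limma adjusted p = 0.757). Irf9 differed less, at 82.4 and 63.2 CPM with PBS and 91.7, 67.2 and 60.8 CPM with Sema3G (log2 fold change 0.00, limma adjusted p above 0.99).

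**Figure D4:**
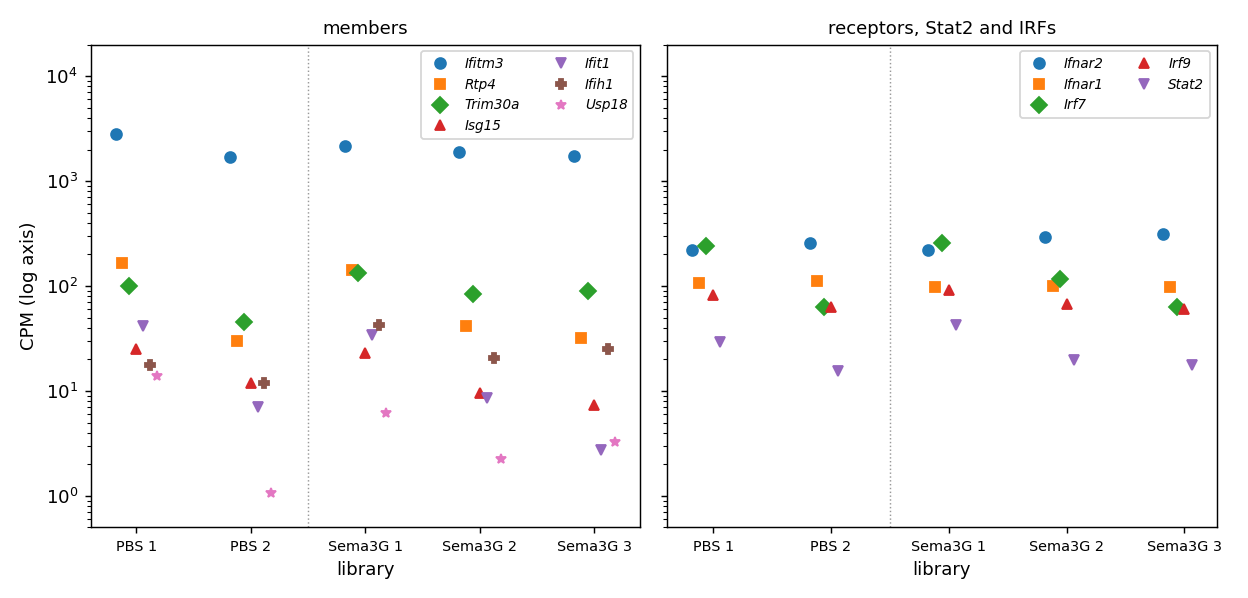
CPM on a log axis of 7 members (left) and of 5 receptor, Stat2 and IRF genes (right) in each library, with the dotted line between the PBS and the Sema3G libraries. Rtp4, Ifit1, Isg15 and Irf7 are high in PBS replicate 1 and Sema3G replicate 1, while Ifnar1 stays between 97.9 and 111 CPM.

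Over the wider list of interferon genes, receptors, signalling and induction genes and paralogs of the members, 93 of 103 had a row, 56 were tested, 1 was called higher and none lower by limma, with 1.59% and 0.218% of all genes called. The median log2 fold change of the 56 was -0.22, that of all genes. The gene called was Slfn10-ps, a Schlafen pseudogene, with 5 and 13 UMIs after PBS and 24, 67 and 37 after Sema3G (log2 fold change 1.88 ± 0.39 SE, limma adjusted p = 0.0207). Its groups did not overlap, and unlike the Schlafen members it was lower in the first library of each group. The limma adjusted p was 0.118 without PBS replicate 1, 0.191 without Sema3G replicate 2 and 0.0802 without Sema3G replicate 3.

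Markers of other cells were counted in the same libraries. For plasmacytoid dendritic cells, which make much interferon, the summed level of 4 markers was 220 and 221 CPM with PBS and 231 to 258 CPM with Sema3G, nearly all from Tcf4, and Siglech was at 0 throughout. For conventional dendritic cells, 2 of 4 markers had UMIs, with a summed level of 0 to 2.22 CPM, and Flt3 and Xcr1 were at 0. For neutrophils and their precursors, 2 of the 4 markers with a row had UMIs, at 0 to 2.68 CPM in sum, and Elane and Ngp were at 0. All 4 stromal markers had UMIs, at 20.9 and 8.57 CPM with PBS and 12.2, 8.57 and 14.8 CPM with Sema3G. The macrophage markers summed to 12570 and 9761 CPM with PBS and 8860, 9518 and 9295 CPM with Sema3G. This sum came mostly from Csf1r and Lyz2, and it was high in PBS replicate 1 and not in Sema3G replicate 1. Of the 8 macrophage markers, 4 were highest in the first library of both groups, as most members were, and these were Adgre1, Cd68, Fcgr1 and Mertk, the last with at most 2.78 CPM. For Csf1r, Lyz2 and Itgam this held in the PBS group but not in the Sema3G group. Cd14 went the other way, at 903 and 1247 CPM with PBS and 649, 989 and 862 CPM with Sema3G. Adgre1 had 1069 and 916 CPM with PBS and 902, 631 and 567 CPM with Sema3G. Cd68 had 655 and 337 CPM with PBS and 425, 300 and 291 CPM with Sema3G, and Fcgr1 had 179 and 119 CPM against 155, 128 and 108 CPM. The part of these markers in the members' differences between libraries was not tested.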

How the data were processed

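RNA from 5 samples of LPS-activated BMMs was sequenced as 3′-end libraries with UMIs. Reads were mapped to mm10 by the authors, who counted UMIs in Strand NGS and used edgeR (3.12 in the submitters' processing notes) for normalization. The annotation, strand setting and filters behind the counts are not given in the sources used. The deposited values are CPM, and the same table holds the authors' own p-values, q-values and ranking, which were not used. All 5 sample columns were used. 100% of the CPM values were within 0.01 of a whole count, so UMI counts were recovered.

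The deposited values are CPM and not counts, so the main test was limma with trend (version 3.58.1 in R 4.3.3) on log2(CPM + 1). It covered the 10088 genes averaging at least 1 CPM, and p values were adjusted over all of these by Benjamini-Hochberg. The plan named edgeR's quasi-likelihood test instead if the values were whole counts. That test was run on the recovered UMI counts as an alternative, and it called Ifih1. On this scale the change of low genes is understated. Alternatives used edgeR (4.0.16) and DESeq2 (1.42.0) on recovered UMI counts, and the fits were tested on simulated data. Ratios between libraries have exact binomial intervals (scipy 1.17.1). Gene positions came from GENCODE M21. Promoter sequences came from a set of windows at RefSeq starts (GRCm38.p6), and 11 members had no window in that set. In the table, 27 symbols had been turned into dates, and none is named.

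The members and lists were chosen with earlier results of these data known. Per-library values were given for the 14 members with the largest log2 fold change in size among those with a mean of at least 10 CPM and for Isg15, Ifit1, Ifit3, Rsad2, Mx1, Usp18, Ifitm3 and Bst2. Of the pathway list, Ifnb1, Ifnar1, Ifnar2, Stat2, Irf9, Irf7 and any gene called were named. A further result is not reported here. Values of other members were added after they were seen, so that every member is accounted for. Sema3G replicates 2 and 3 were the most similar pair, at a chi-square of 1.69 per degree of freedom (7917 genes), which is above sampling noise, and the other 9 pairs had 4.62 (PBS replicate 1 with Sema3G replicate 1) to 13.3, so all 5 were counted separately. Pseudocount, filter, scaling, test and replicate block were varied, and libraries were left out singly.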

Additional observations from a re-analysis of the deposited data

How the results depend on the processing

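No member was called with a pseudocount of 0.1 or 5, with no filter, with a mean of at least 5 CPM or with DESeq2. The shares of all genes called in either direction were 1.24%, 1.68%, 0.844%, 2.18% and 1.81% in these settings. Ifih1 was called higher after TMM scaling (1 of 43 members, against 3.19% of all genes). It was also called higher by edgeR's quasi-likelihood test on counts (1 of 38, against 4.05%). Ifih1 and Parp14 (2 of 44) were called higher after scaling to the listed genes other than Rn45s, where 481 of 10520 genes were called higher. The quasi-likelihood test with no filter called Ifih1, Parp14, Ifi203 and Trim30a higher (4 of 44), and 555 of 12792 genes higher. Over all genes, both directions together, the calls went from 182 to 108 with no filter, 325 with TMM and 482 with the listed-gene scaling. They were 334 with the quasi-likelihood test and 598 with that test and no filter. Members with Sema3G above PBS without overlap went from 4 to 7 with TMM (17.4% of all genes) and 8 with the listed-gene scaling (21.3%), where those below went from 1 to 0 (1062 of 10088 genes). With 1 library left out in turn, between 0 and 5 members and between 26 and 856 genes were called, and the members' median ran from -0.64 to 0.56. Members without overlap ran from 4 to 21 above and from 1 to 24 below. The highest counts of members came without PBS replicate 1 (5 called, 21 above against 24.4% of all genes), without PBS replicate 2 (24 below against 50.2%) and without Sema3G replicate 1 (2 called, 9 below against 42.0%, 856 genes called), and all-gene calls were 92 without PBS replicate 1, 26 without Sema3G replicate 2 and 28 without Sema3G replicate 3.

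The replicate number was also used as a block over the 4 libraries that share numbers 1 and 2, with 1 residual degree of freedom. There limma called Ifih1, Ifi203 and Trim30a higher (3 of 43 members). Of all 10088 genes it called 559, with 278 higher and 281 lower. Deviations of same-numbered libraries correlated at 0.16 over all genes and 0.48 over the members. With only 2 such pairs, no label that ties them and members measured in the same libraries, these correlations are a description only. Whether same-numbered libraries share an origin was not tested. The log2 fold changes of Ifit2 (0.31), Ifit3 (0.33), Oas3 (0.14), Rsad2 (0.13), Rtp4 (0.12) and Ifi27l2a (0.11) turned positive in the block.

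The sign of uncalled members turned under other settings too. It turned with TMM for Ddx58 (0.046), Ifit2 (0.081), Rsad2 (0.044), Isg20 (0.013) and Ifitm3 (0.0042), and with the listed-gene scaling for Ddx58 (0.13), Ifit2 (0.15), Oasl1 (0.020), Usp18 (0.0070), Rsad2 (0.13), Isg20 (0.10) and Ifitm3 (0.091). It turned in the quasi-likelihood test for Ddx58 (0.016) and Ifi44 (-0.23), and in that test with no filter for Ddx58 (0.0064), Ifit2 (0.060) and Ifi44 (-0.24). In DESeq2 it turned for Ddx58 (0.030), Ifit2 (0.10, with no adjusted p), Ifit3 (0.0054), Rsad2 (0.0012) and Ifi44 (-0.18). With a pseudocount of 5 it turned for Ifi44 (-0.096). Leaving out each library in turn gave ranges across 0 for 27 members, which were Ddx58 -0.73 to 0.43, Dhx58 -0.84 to 0.052, Zbp1 -0.41 to 0.96, Ifit1 -1.98 to 0.45, Ifit2 -0.67 to 0.61, Ifit3 -1.04 to 0.48, Oas1a -0.48 to 1.58, Oas2 -0.93 to 1.75, Oas3 -1.35 to 0.79, Oasl1 -0.72 to 0.33, Oasl2 -1.36 to 0.79, Isg15 -1.04 to 0.00052, Usp18 -1.68 to 1.15, Herc6 -0.25 to 0.58, Rsad2 -0.73 to 0.44, Isg20 -1.01 to 0.66, Ifitm3 -0.56 to 0.16, Lgals3bp -1.29 to 0.46, Rtp4 -1.52 to 0.93, Parp9 -0.011 to 0.63, Dtx3l -0.15 to 0.25, Slfn5 -0.60 to 1.33, Slfn8 -0.47 to 0.87, Ifi204 -0.27 to 0.89, Ifi44 -1.41 to 1.48, Ifi47 -1.34 to 0.14 and Ifi27l2a -1.27 to 0.56. The other 16 kept their sign, at Ifih1 0.62 to 1.18, Eif2ak2 0.24 to 0.75, Mx1 -0.55 to -0.028, Mx2 0.14 to 1.54, Cmpk2 0.59 to 1.22, Samhd1 -0.55 to -0.29, Adar -0.93 to -0.23, Ifitm2 -0.56 to -0.34, Bst2 -1.04 to -0.16, Parp14 0.087 to 1.05, Slfn1 -1.45 to -0.16, Slfn2 0.14 to 0.41, Ifi203 0.057 to 1.01, Ifi35 -0.78 to -0.037, Xaf1 0.021 to 2.43 and Trim30a 0.0027 to 1.14. The cause of these changes was not tested. The comparison rests on 2 libraries against 3, the members' median ratio between the PBS libraries was 2.28, and 8 members had under 3 UMIs in some library.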
